A study of Rattus norvegicus and Bos taurus with 6 samples.

Results

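Chemokines and their receptors were followed as one family through single-nucleus RNA-seq libraries of rat and cow adipose tissue. The members were all genes with a symbol built from Ccl, Cxcl, Ccr, Cxcr or Ackr plus a number, together with Cx3cl1, Cx3cr1, Xcl1 and Xcr1. The rule found 60 genes over the 6 libraries, 22 CC ligands, 16 other ligands, 18 signalling receptors and 4 atypical receptors, and 56 of them were rat genes. The rat Parse files listed 54 members among 38697 genes, the 10x file 55 among 25629 and the cow file 52 among 36075.

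Each depot and kit was 1 library. Nuclei from snap-frozen fat of normal male Dahl SS rats (SS/HsdMcwiCrl), an inbred strain known for salt-sensitive blood pressure, gave 5 libraries, and normal female Holstein dairy cow flank subcutaneous white fat (sWAT) gave the other one. Mesenteric perivascular fat (mesPVAT), the white fat around the vessels of the gut, was sequenced with the droplet-based 10x 3' kit and with the plate-based Parse Evercode kit. Retroperitoneal white fat (RP fat), perivascular fat of the thoracic aorta (taPVAT, brown in rats), subscapular brown fat (BAT) and the cow tissue were sequenced with Parse only. The labels give no age and no number of animals per library, and no group was treated.

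Chemokines are small secreted proteins that guide cells along gradients, and they are grouped by the spacing of the cysteines at their amino end into CC, CXC, CX3C and XC types. They act on G protein-coupled receptors, most of them carried by leukocytes. Atypical receptors bind chemokines without the usual G protein signal and take them up or carry them across the vessel wall. In fat, endothelial, stromal and immune cells are the usual sources, and CCL2 is the chemokine best known for drawing monocytes into expanding fat.

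Depth differed widely and bears on every value. The libraries held 2297 to 5887 nuclei and from 845316 (RP fat) to 16827260 (cow) unique molecular identifiers (UMIs, counts of distinct captured molecules), with a median of 161 UMIs per nucleus in the 10x library, 213 to 346 in the white rat Parse libraries, 1246 to 1706 in taPVAT and BAT and 3530 in the cow. No cell barcode was shared between any 2 libraries. For mesPVAT and RP fat with Parse the paper saw no clear break between nuclei and background RNA. It reads this as difficulty in telling the 2 apart. In the 10x library, 3788 of the 5887 barcodes had fewer than 200 UMIs. Barcodes of all libraries are called nuclei here, and the part of background RNA in their class values was not tested. Levels are given as CPM, the UMIs of a gene summed over all nuclei and scaled to 1000000 UMIs per library, with the exact Poisson 95% interval. The intervals cover counting error only: with 1 library per group there was no replicate, no test was possible, and every difference is a difference between libraries. In whole-library values, fewer cells of a type and less RNA per cell cannot be told apart. The labelled depots were checked against their markers. Ucp1, the uncoupling protein of brown fat, was at 1782 CPM in taPVAT and 2072 CPM in BAT, 63.4 and 89.9 CPM in the mesPVAT and RP fat Parse libraries, 0.808 CPM (1 UMI) in the 10x library and 0.654 CPM in the cow. Plin1, which coats the lipid droplet, was present in every library (164 to 2501 CPM), while Adipoq, an adipokine of mature adipocytes, ran from 39.0 CPM in RP fat to 890 CPM in the 10x library among the rat libraries and was not analysed here in the cow. The medians per nucleus that the study states for mesPVAT and RP fat with Parse are in the opposite order to those of the deposited files. The highest UMI totals of single nuclei that it states for these depots are in the opposite order too. As deposited, they were 41374 in the mesPVAT file and 5611 in the RP fat file. Whether these 2 files were exchanged could not be settled, the labels were followed, and an exchange would swap the names of the mesPVAT and RP fat Parse values throughout.

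The promoters of 3 rat genes that the results turn on are shown first. Each is the 250 bases before the transcript start used by the RefSeq promoter table (build GRCr8). Cxcl1 was taken because its level set the libraries furthest apart. Ackr3 was taken as the most abundant member of one library by CPM, and Cxcl12 as that of the others. They were picked after the levels were seen. Capitals mark matches to any of 4 motifs searched on both strands: TATAAA (known as the TATA box), the AP-1 consensus with any base at its centre, the NF-kB consensus with any base at the fifth position, and GGGCGG (GC box). The regions are chr14:17479322-17479571 on the minus strand, chr9:98247104-98247353 on the plus strand and chr4:152060531-152060780 on the plus strand.
Cxcl1: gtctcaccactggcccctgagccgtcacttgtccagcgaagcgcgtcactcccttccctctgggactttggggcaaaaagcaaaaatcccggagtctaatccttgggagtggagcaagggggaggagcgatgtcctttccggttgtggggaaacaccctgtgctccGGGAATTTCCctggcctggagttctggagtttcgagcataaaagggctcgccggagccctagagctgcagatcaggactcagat
Ackr3: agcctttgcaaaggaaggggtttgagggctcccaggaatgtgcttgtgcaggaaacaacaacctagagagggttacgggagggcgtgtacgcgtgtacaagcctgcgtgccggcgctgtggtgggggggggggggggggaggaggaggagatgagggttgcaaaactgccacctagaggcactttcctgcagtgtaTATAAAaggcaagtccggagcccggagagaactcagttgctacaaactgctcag
Cxcl12: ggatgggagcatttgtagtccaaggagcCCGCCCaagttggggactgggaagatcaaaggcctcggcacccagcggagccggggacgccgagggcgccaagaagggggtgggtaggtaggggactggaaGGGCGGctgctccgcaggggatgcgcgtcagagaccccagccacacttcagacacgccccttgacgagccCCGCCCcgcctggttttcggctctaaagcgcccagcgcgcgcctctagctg
In Cxcl1 the capitals are an NF-kB match, 84 to 75 bases before the start. In Ackr3 they are a TATA box match, 54 to 49 bases before the transcript start, and in Cxcl12 they are 3 GC box matches, 1 on the gene's strand and 2 on the other. The transcript start used for Ackr3 lies 54 bases inside the annotated gene span, so that the match falls at the first bases of that span. For 15 of 42 members the start used lies inside the span, and for Cxcl1 and Cxcl12 it is the edge of the span. Over 300-base windows that also take in the first 50 transcribed bases, the NF-kB motif was in 3 of 42 members with a promoter entry (Ccr3, Cxcl1 and Cxcl6) and in 0.362% of all 33469 rat promoters. TATAAA was in 11 members and 14.2% of all promoters, the AP-1 motif in 7 and 7.33%, and GGGCGG in 10 and 33.1%. A match says only that these letters are present, and binding was not measured.

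Summed over all members, the 5 Parse libraries lay close together, from 323 CPM (309 to 337) in BAT and 348 (332 to 365) in taPVAT to 361 (321 to 404) in RP fat, 362 (353 to 371) in the cow and 370 (341 to 400) in mesPVAT. The 10x library stood apart at 2321 CPM (2237 to 2407). Most of that sum was not chemokine: the 4 atypical receptors made up 68.0% of the 10x member UMIs, against 12.6% to 18.4% in the Parse libraries. Ligands other than the CC type made up 64.6% of member UMIs in taPVAT, 73.1% in BAT and 66.5% in the cow, and 40.9% and 25.9% in mesPVAT and RP fat with Parse.

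**Figure D1:**
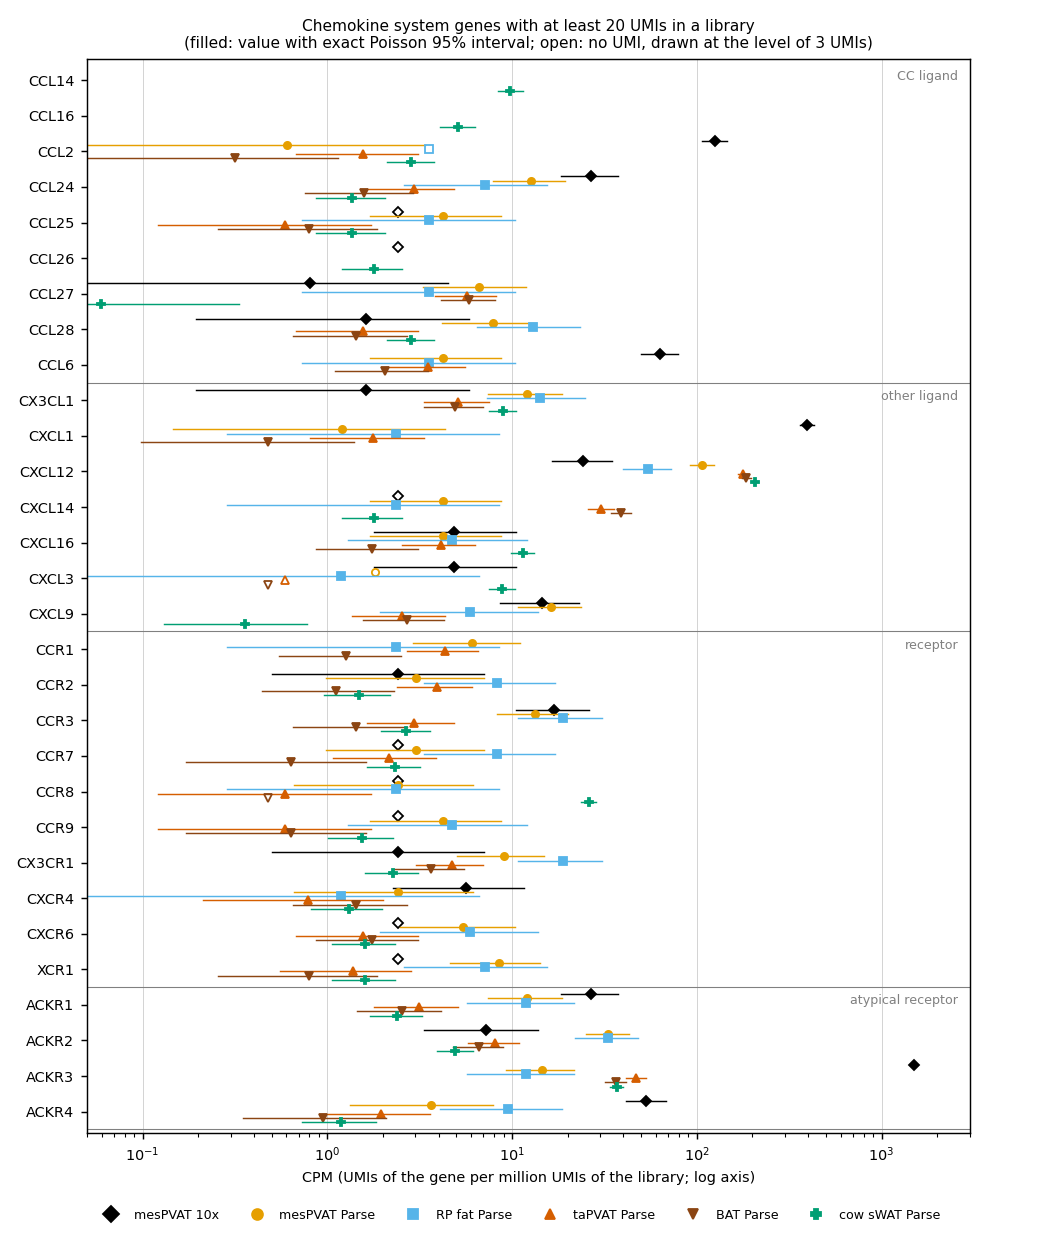
CPM on a log axis of the 30 members with at least 20 UMIs in a library, grouped by role, with 1 symbol per library; bars are exact Poisson 95% intervals and open symbols, drawn at the level of 3 UMIs, mark no UMI. CXCL12 is the rightmost member of all 5 Parse libraries, and in the 10x library ACKR3 (1491 CPM), CXCL1 (397 CPM) and CCL2 (125 CPM) lie far to the right of the Parse values.

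Every member had a UMI in at least 1 library. The number detected was 29 in the 10x library, 49 in mesPVAT and taPVAT with Parse, 46 in RP fat and BAT and 51 in the cow. At least 20 UMIs were reached by 30 members, 18 of them in a rat library and 12 only in the cow, which was the deepest library; the other 30 members had at most 1 to 19 UMIs, and of these 14 were highest in the cow. Among these low members were the interferon-induced ligands Cxcl10 (14 UMIs, 10x) and Cxcl11 (2 UMIs, taPVAT), the B cell attractant Cxcl13 (10 UMIs, cow) and its receptor Cxcr5 (15 UMIs, mesPVAT Parse), and the lymph node ligands Ccl19 (8 UMIs in each of 3 libraries) and Ccl21 (8 UMIs, taPVAT).

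By CPM, Cxcl12, the homeostatic ligand that holds progenitors and leukocytes in place through Cxcr4, was the most abundant member in all 5 Parse libraries. The cow had 206 CPM (200 to 213), BAT 185 (175 to 196), taPVAT 178 (167 to 190), mesPVAT 107 (91.7 to 124) and RP fat 54.4 (39.8 to 72.6), and the 10x library had 24.2 (16.4 to 34.6). The taPVAT and BAT intervals overlapped, and the other neighbours in this order did not. Both Parse sublibraries, which split the nuclei of each sample after barcoding, gave the same order (198 and 214 CPM in the cow, 177 and 194 in BAT, 173 and 184 in taPVAT, 104 and 109 in mesPVAT, 54.3 and 54.6 in RP fat). Levels were also divided by the kilobases of gene span, introns included. UMIs count molecules, and whether this scale suits a comparison between genes was not tested. On it, Cxcl12 was at 13.9 CPM per kb in taPVAT and 14.4 in BAT. Ackr3 (4.06 and 3.16) and Cxcl14 (3.79 and 4.85) were lower there. In mesPVAT with Parse, Cxcl12 at 8.32 (7.14 to 9.63) overlapped Ackr1 at 7.45 (4.55 to 11.5). In RP fat, Cxcl12 at 4.24 (3.10 to 5.65) overlapped Ackr2 at 2.67 (1.77 to 3.86). In the 10x library Cxcl1 at 223 (204 to 244) lay above Ackr3 at 129 (123 to 135), the reverse of their order by CPM.

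The nuclei were sorted by 4 class genes: Ptprc (CD45, of leukocytes), Ptprb (of blood endothelium), Pdgfra (of stromal progenitors) and Plin1 (of adipocytes). A nucleus with a UMI of exactly 1 of them was put in that class. Cxcl12 was highest in Ptprb nuclei in mesPVAT with Parse, taPVAT, BAT and the cow. It stood at 682 CPM (589 to 785) in Ptprb nuclei of taPVAT and 733 (658 to 814) in those of BAT, against 47.1 (38.8 to 56.5) and 28.9 (23.6 to 35.2) in Plin1 nuclei. Of the Ptprb nuclei, 41.0% in taPVAT and 49.3% in BAT held a Cxcl12 UMI, against 7.09% and 5.21% of the Plin1 nuclei, although the Plin1 nuclei were deeper (medians 1714.5 and 2073 UMIs against 888 and 1158). After each nucleus was thinned to 200 UMIs, the taPVAT shares were 10.4% (6.88 to 14.8) in Ptprb and 1.45% (0.849 to 2.32) in Plin1 nuclei. The contrast between classes was smaller in the cow, at 335 CPM (310 to 361) in Ptprb, 248 in Pdgfra, 155 in Plin1 and 51.9 (39.8 to 66.5) in Ptprc nuclei, and in mesPVAT with Parse, at 192 (135 to 265) in Ptprb and 70.1 (46.2 to 102) in Plin1 nuclei.

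**Figure D2:**
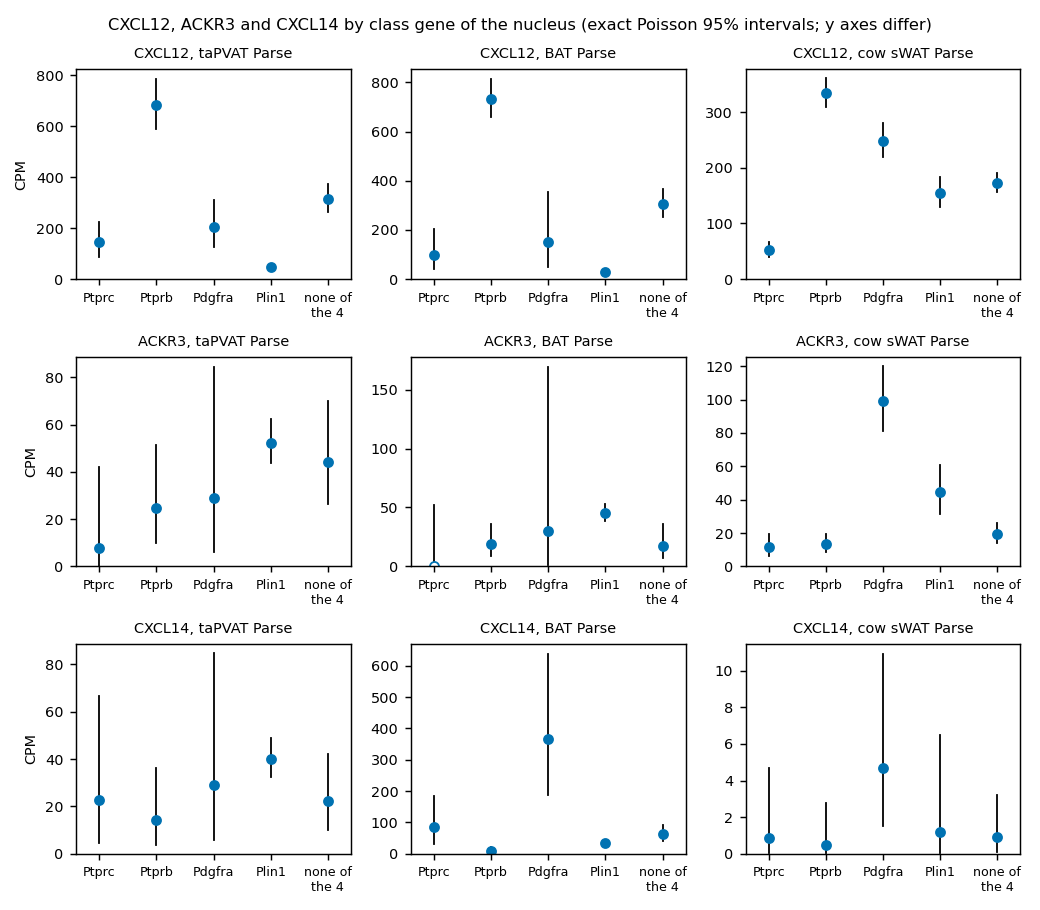
CPM of CXCL12, ACKR3 and CXCL14 (rows) in nuclei with exactly 1 of the 4 class genes or none of them, in the taPVAT, BAT and cow Parse libraries (columns); points are pooled UMIs of the class, bars exact Poisson 95% intervals, and each panel has its own linear axis. CXCL12 is highest in Ptprb nuclei in all 3 libraries, while ACKR3 is highest in Plin1 nuclei of the rat libraries (52.4 and 45.2 CPM) and in Pdgfra nuclei of the cow (99.2 CPM).

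Cxcl14, a ligand secreted by brown adipocytes and by stroma, separated the brown from the white depots. It was at 30.4 CPM (25.8 to 35.6) in taPVAT and 38.9 (34.2 to 44.1) in BAT, and at 4.23 (1.70 to 8.71) in mesPVAT with Parse, 2.37 (0.287 to 8.55) in RP fat and 1.78 (1.20 to 2.55) in the cow, with no UMI in the 10x library. The brown libraries thus lay above all others with no overlap of the intervals. The taPVAT nuclei were spun more slowly than those of white fat, and the speed for BAT is not given in the sources used here, so depot, isolation and depth cannot be told apart between brown and white fat. In BAT the highest level was in Pdgfra nuclei, at 365 CPM (189 to 638; 12 UMIs in 23 nuclei), against 35.6 (29.6 to 42.5) in Plin1 nuclei. Nuclei in which the wider list of 8 stromal progenitor markers led gave 343 CPM (254 to 453; 49 UMIs in 96 nuclei). In taPVAT Plin1 nuclei were at 40.0 CPM (32.5 to 48.9) and Pdgfra nuclei at 29.0 (5.97 to 84.6), and the intervals overlapped, as they did for stromal-led (40.4 CPM) and adipocyte-led nuclei (35.3 CPM). The 1440 Plin1 nuclei of BAT still held most UMIs of any single class, 123 of 246.

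The growth-regulated ligand Cxcl1, which draws neutrophils, and the monocyte attractant Ccl2 were nearly confined to the 10x library among the rat libraries. Cxcl1 had 491 UMIs there (397 CPM, 362 to 433) and 2, 2, 9 and 3 UMIs in mesPVAT, RP fat, taPVAT and BAT with Parse, at most 2.37 CPM. Ccl2 had 155 UMIs in the 10x library (125 CPM, 106 to 147) and 1, 0, 8 and 2 in the rat Parse libraries, and 48 in the cow (2.85 CPM). Their neighbours Ccl7 (11 UMIs) and Cxcl2 (10 UMIs) were also highest in the 10x library. Cxcl1, Cxcl2, Cxcl3 and Cxcl6 lie together on chromosome 14 and Ccl2, Ccl7 and Ccl12 on chromosome 10, and how the counting divided reads among such related genes is not given in the sources used here.

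Both genes had UMIs in several classes of nuclei in the 10x library. Cxcl1 was at 391 CPM (308 to 489) in Plin1, 455 (242 to 777) in Ptprb and 183 (49.9 to 469) in Pdgfra nuclei, with overlapping intervals, at 100 (12.1 to 362; 2 UMIs) in Ptprc nuclei, and at 407 (368 to 449) in nuclei with none of the 4 class genes. By the marker lists, it was at 887 CPM (589 to 1282) in nuclei led by the leukocyte list and 701 (569 to 855) in those led by the stromal list, both above the 372 (318 to 434) in those led by the adipocyte list, and at 70.2 (14.5 to 205) in those led by the mesothelial list. Its place among leukocytes thus differed between the Ptprc class and the leukocyte list. Ccl2 had its highest level in leukocytes by both, but with overlapping intervals. Ptprc nuclei were at 250 CPM (81.2 to 584, from 5 UMIs), against 92.6 (54.9 to 146) in Plin1 nuclei. Leukocyte-led nuclei were at 380 CPM (196 to 664), against 208 (139 to 298, from 29 UMIs) in stromal-led nuclei. Mesothelial-led nuclei were at 70.2 CPM, and the 56 lymphatic endothelial-led nuclei had no Ccl2 UMI. In the cow, where 17 of the 48 CCL2 UMIs were in Pdgfra nuclei, CCL2 was at 15.9 CPM (9.27 to 25.5) there, above the Ptprb nuclei at 0.493 (0.0125 to 2.75).

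The other CC ligands differed in their classes. Ccl6, a ligand of rodent macrophages, was at 63.0 CPM (49.8 to 78.7) in the 10x library and 2.06 to 4.23 CPM in the rat Parse libraries. It was at 1551 CPM (1054 to 2202) in the 52 Ptprc nuclei of the 10x library and 15.4 (3.18 to 45.1) in its 653 Plin1 nuclei. Ccl24, an eosinophil attractant made by macrophages, had 33, 21, 6, 15 and 10 UMIs in the rat libraries from 10x to BAT and 23 in the cow. In the 10x library it had no UMI in Ptprc nuclei, but was at 317 CPM (152 to 583) in nuclei led by the 7-gene leukocyte list and 9.08 (2.47 to 23.3) in adipocyte-led ones. Ccl27, a ligand of skin-homing T cells, was at 5.69 CPM in taPVAT and 5.86 CPM in BAT, 6.64 in mesPVAT with Parse and 0.0594 (1 UMI) in the cow. Of its UMIs, 24 of 29 in taPVAT and 33 of 37 in BAT were in adipocyte-led nuclei and none in leukocyte-led ones, with overlapping intervals of the levels. Ccl28, a mucosal ligand, was highest in RP fat (11 UMIs, with an interval of 6.50 to 23.3 CPM) and at 7.85 CPM (4.18 to 13.4) in mesPVAT with Parse, and both Ccl27 and Ccl28 share part or all of their span with a non-coding RNA gene. Of the members with at least 20 UMIs in a rat library, 6 overlap another annotated gene in their span (Ackr4, Ccl27, Ccl6, Ccr3, Cx3cr1 and Cxcl16), and reads of such pairs could be counted under either name.

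Cx3cl1 (fractalkine), which is made as a membrane-bound ligand by endothelium, stood at 14.2 CPM (7.34 to 24.8) in RP fat, 12.1 (7.37 to 18.6) in mesPVAT with Parse and 8.91 (7.54 to 10.5) in the cow, with overlapping intervals. Lower levels were found in taPVAT, at 5.10 (3.33 to 7.47), and BAT, at 4.91 (3.33 to 6.96), and 2 UMIs in the 10x library. The sublibraries of mesPVAT gave 17.4 and 6.29 CPM and those of the cow 8.13 and 9.60 CPM, so that their order turned. Cxcl9, an interferon-gamma-induced ligand of T cells, had 27 UMIs in mesPVAT with Parse (16.3 CPM) and 18 in the 10x library (14.5 CPM), against 2.55 CPM in taPVAT, 2.69 in BAT and 0.357 in the cow. Cxcl16, a membrane-bound ligand of macrophages that binds Cxcr6, was at 11.5 CPM (9.91 to 13.2) in the cow and 1.74 to 4.85 CPM in the rat libraries. In taPVAT, 14 of its 21 UMIs were in nuclei with several class genes.

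The signalling receptors were low everywhere. Among the 17 or 18 listed per library the median was 0 UMIs in the 10x library and 5.5 to 10.5 UMIs in the rat Parse libraries, and no receptor passed 18.9 CPM in a rat library. Ccr3, the eotaxin receptor of eosinophils, had 21, 22, 16, 15 and 9 UMIs in the rat libraries from 10x to BAT. Cx3cr1, the fractalkine receptor of monocytes and macrophages, had 3, 15, 16, 24 and 23, and Ccr2, the receptor of Ccl2, had 3, 5, 7, 20 and 7. Cxcr4, the signalling receptor of Cxcl12, had 7, 4, 1, 4 and 9 UMIs in the rat libraries and 22 in the cow (1.31 CPM), so that ligand and receptor were detected together in only 1 nucleus of the 10x library, 1, 0, 3 and 6 of the rat Parse libraries and 8 of the cow. Receptor reads were therefore read as a group. The low rat receptors Ccr1 (22 UMIs), Ccr2 (20) and Cx3cr1 (24) passed 20 UMIs in taPVAT, and Ccr7, Ccr9, Cxcr6 and Xcr1, receptors of lymphocytes and dendritic cells, reached it only in the cow, with 39, 26, 27 and 27 UMIs. The ligand Ccl25, which acts on Ccr9, had 23 UMIs there.

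The summed receptor level was highest in Ptprc nuclei in 3 rat libraries. These nuclei held 19 of 54 receptor UMIs in the 10x library, 25 of 196 in taPVAT and 9 of 141 in BAT. They were 0.883%, 5.69% and 2.11% of the nuclei of these libraries. The receptors were at 951 CPM (572 to 1485) in Ptprc and 25.7 (8.35 to 60.0) in Plin1 nuclei of the 10x library, 190 (123 to 280) and 20.6 (15.3 to 27.2) in taPVAT, and 126 (57.6 to 239) and 16.2 (12.2 to 21.1) in BAT. In the 10x library 16 of the 19 receptor UMIs in Ptprc nuclei were Ccr3, in 9 nuclei. In the white Parse libraries the intervals overlapped: mesPVAT had 48.4 CPM (9.98 to 141; 3 UMIs) in Ptprc and 67.5 (44.1 to 99.0) in Plin1 nuclei, and RP fat had 128 (26.5 to 375; 3 UMIs) and 85.6 (34.4 to 176). Nuclei with none of the class genes held 76 of 151 receptor UMIs in mesPVAT with Parse, 79 of 109 in RP fat and 30 of 54 in the 10x library. They were 62.3%, 81.5% and 85.4% of the nuclei of these libraries. The share of nuclei with a receptor UMI in mesPVAT with Parse was 2.65% (0.551 to 7.56) of Ptprc and 4.56% (2.97 to 6.66) of Plin1 nuclei, so leukocyte nuclei did not show a higher share than adipocyte nuclei there. The summed receptor levels of the white Parse libraries, 91.1 CPM (77.2 to 107) in mesPVAT and 129 (106 to 156) in RP fat, exceeded 38.4 in taPVAT and 22.3 in BAT.

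**Figure D3:**
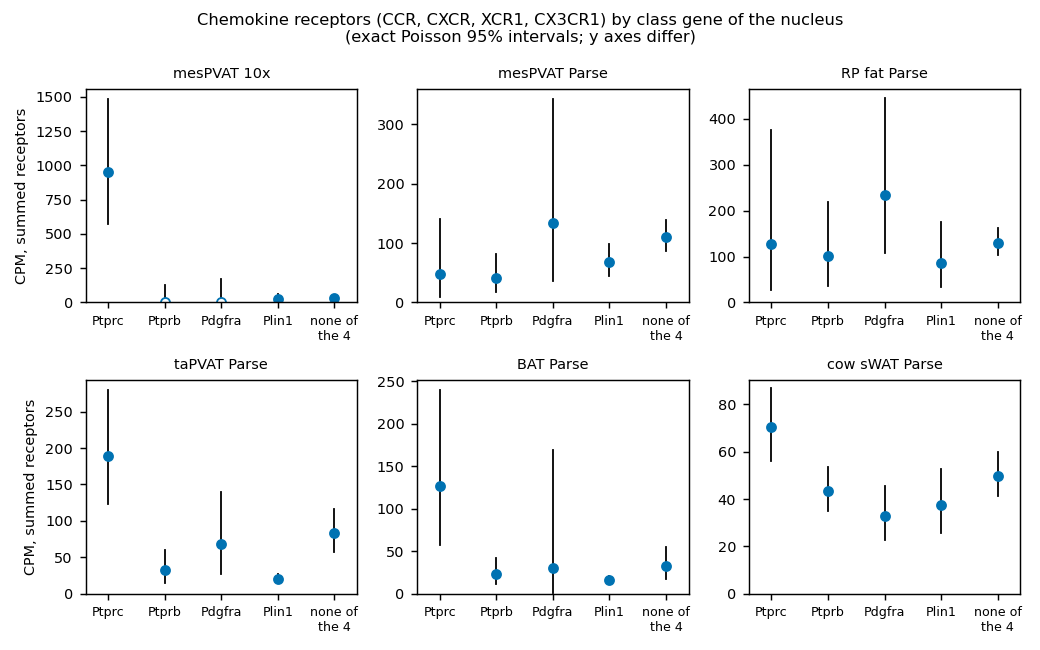
Summed CPM of the signalling receptors in nuclei with exactly 1 of the 4 class genes or none of them, 1 panel per library with its own linear axis; points are pooled UMIs, bars exact Poisson 95% intervals, open circles no UMI. Ptprc nuclei lie above Plin1 nuclei in the 10x, taPVAT, BAT and cow libraries and overlap them in mesPVAT and RP fat with Parse.

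In the cow the picture was set by CCR8, a receptor of regulatory T cells and T helper cells, with 439 UMIs (26.1 CPM, 23.7 to 28.6), 57.2% of all receptor UMIs of the library, against 0 to 4 UMIs in any rat library. It showed no class: the levels were 28.5 CPM (19.7 to 39.8) in Ptprc, 24.7 in Ptprb, 19.7 in Pdgfra and 28.0 (18.0 to 41.7) in Plin1 nuclei, and 27.2 in nuclei with no class gene. All these intervals overlapped. Without CCR8 the cow receptors were at 41.9 CPM (31.1 to 55.2) in Ptprc, 18.7 (13.3 to 25.7) in Ptprb, 13.1 in Pdgfra and 9.34 (4.03 to 18.4) in Plin1 nuclei.

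Among the atypical receptors, Ackr3 (CXCR7), which scavenges Cxcl12, was highest among the Parse libraries in taPVAT at 47.1 CPM (41.3 to 53.4), followed by the cow at 36.9 (34.1 to 39.9), BAT at 36.6 (32.0 to 41.6), and by 14.5 (9.28 to 21.6) and 11.8 (5.67 to 21.8) in mesPVAT and RP fat with Parse. In the 10x library it reached 1491 CPM (1424 to 1560), with 1845 UMIs in 1161 of 5887 nuclei. Within the brown libraries Plin1 nuclei were at 52.4 CPM (43.7 to 62.4) in taPVAT and 45.2 (38.4 to 52.8) in BAT, and Ptprb nuclei, where Cxcl12 was highest, at 24.9 (9.99 to 51.2) and 18.9 (8.66 to 36.0). In the cow Pdgfra nuclei led at 99.2 CPM (81.3 to 120), above 44.4 (31.4 to 60.9) in Plin1 and 13.3 (8.78 to 19.4) in Ptprb nuclei. The order of stroma and adipocytes depended on how nuclei were classed: by the marker lists, stromal-led nuclei of taPVAT were at 78.3 CPM (53.2 to 111) and adipocyte-led ones at 48.6 (41.6 to 56.5), and in the cow adipocyte-led nuclei were at 72.1 (61.5 to 84.0) and stromal-led ones at 51.2 (46.3 to 56.5). In the 10x library both sortings put stroma first, with 4075 CPM (3273 to 5015) in Pdgfra and 494 (400 to 603) in Plin1 nuclei, and a UMI in 51.1% of the former and 12.1% of the latter, and with 4023 CPM (3697 to 4370) in stromal-led and 488 (425 to 558) in adipocyte-led nuclei. Nuclei led by the mesothelial list, the lining cells of the abdominal cavity, were at 3348 CPM (2822 to 3944). A large part of the signal had no named class, however. Nuclei left unnamed by the lists held 836 of the 1845 Ackr3 UMIs, at 1599 CPM (1492 to 1711), and stromal-led ones held 562. The unnamed nuclei were 55.2% of the nuclei and the stromal-led ones 9.09%. Nuclei with none of the 4 class genes held 1694 of the 1953 UMIs of all atypical receptors in the 10x library. They were 85.4% of its nuclei and held 968120 of its 1237543 UMIs of all genes, so a large share was the rule. Mesothelin (Msln) was at 566 CPM in the 10x library, 13.9 in mesPVAT with Parse and 10.6 in RP fat. Cxcl12 and Ackr3 were seen in the same nucleus in 49 of 2708 taPVAT, 36 of 2699 BAT and 148 of 2297 cow nuclei. Nuclei with Cxcl12 numbered 500, 541 and 881 in these libraries, and nuclei with Ackr3 198, 183 and 259. Whether the overlaps exceed what these numbers and the depth of the nuclei would give was not tested.

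The remaining atypical receptors were lower. Ackr4, which takes up the lymph node ligands Ccl19 and Ccl21, had 66 UMIs in the 10x library (53.3 CPM, 41.2 to 67.9) and 6, 8, 10 and 6 in the rat Parse libraries. It was at 505 CPM (252 to 904) in nuclei led by the lymphatic endothelial list, 325 (140 to 640) in those led by the blood endothelial list and 9.08 (2.47 to 23.3) in adipocyte-led ones; all 4438 bases of its span lie inside Acad11. Ackr2, a scavenger of inflammatory CC ligands, ran the other way, at 33.2 CPM (25.0 to 43.2) in mesPVAT and 33.1 (22.0 to 47.9) in RP fat with Parse, and 7.27 (3.33 to 13.8) in the 10x library, 8.04 in taPVAT, 6.65 in BAT and 4.93 in the cow. Its 55 UMIs in mesPVAT with Parse lay in no class in particular, 33.8 CPM in Plin1 and 26.0 CPM in Ptprb nuclei. Ackr1, the Duffy antigen receptor of venules, had 26.7 CPM with 10x, then 12.1 (mesPVAT) and 11.8 (RP fat) in the white Parse libraries, 3.14 in taPVAT and about the same in BAT (2.53) and the cow (2.38). In the cow, the 20 ACKR1 UMIs of nuclei led by the blood endothelial list gave 6.49 CPM (3.97 to 10.0), against 1.44 (0.717 to 2.57) in stromal-led nuclei. In the mesPVAT libraries the order was turned, but with overlapping intervals. The 10x library had no Ackr1 UMI in blood endothelial-led nuclei (0 to 150 CPM) and 12 in stromal-led ones (85.9 CPM, 44.4 to 150). With Parse there was 1 UMI in the former (6.81 CPM, 0.172 to 37.9) and 7 in the latter (20.8 CPM, 8.37 to 42.9).

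**Figure D4:**
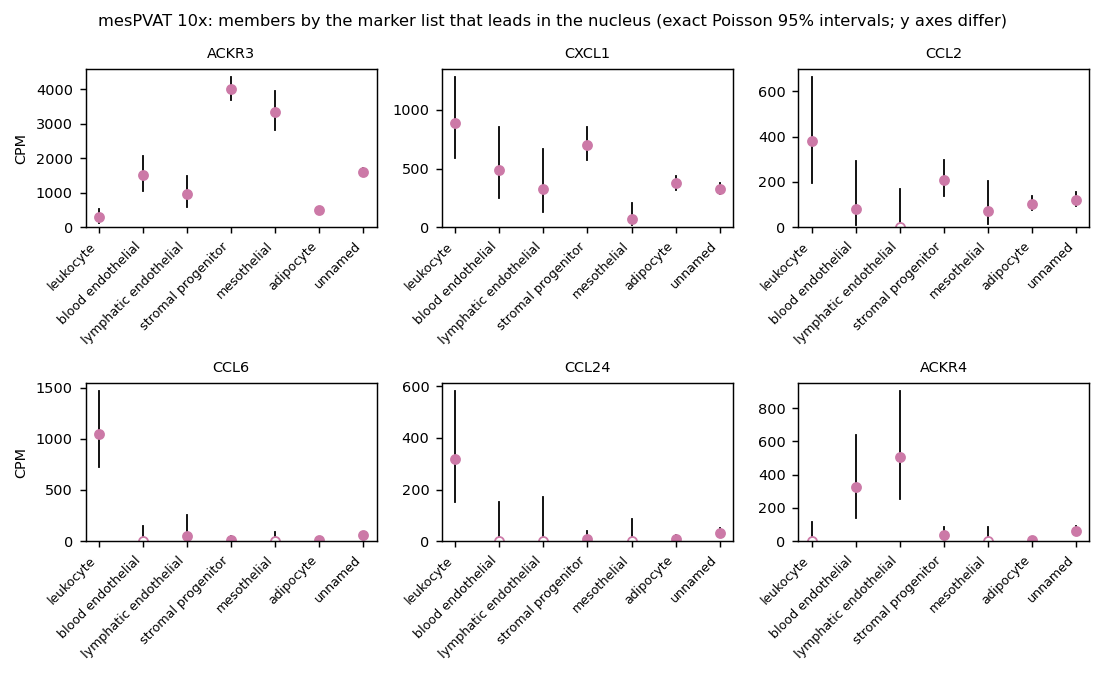
CPM of 6 members in the mesPVAT 10x library by the marker list that led in the nucleus, each panel with its own linear axis; bars are exact Poisson 95% intervals and open circles mark no UMI. ACKR3 is highest in stromal-led and mesothelial-led nuclei, CCL6 and CCL24 in leukocyte-led nuclei and ACKR4 in endothelial-led nuclei, while CXCL1 and CCL2 have UMIs in leukocyte-led, stromal-led and adipocyte-led nuclei.

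Between the brown depots, members were compared where both libraries together had at least 20 UMIs, and a CPM ratio of 2 or more in either direction was counted. Of 18 members 5 were higher in taPVAT and 0 in BAT; over all 18696 genes compared, 5.97% were higher in taPVAT, 1.1% lower and 7.07% either. Among them were Ccr2 (3.92 against 1.11 CPM, ratio 3.54, 1.44 to 9.91), Ccr1 (3.41, 1.46 to 8.85), Cxcl16 (2.36, 1.09 to 5.43) and Ccr3 (2.06, 0.846 to 5.35), which are receptors of monocytes, macrophages or eosinophils and a macrophage ligand, and the interval of Ccr3 included 1. The median log2 ratio was 0.37 over the 18 members and 0.11 over all genes. Cxcl12 was level (0.963, 0.883 to 1.05), Cxcl14 was lower in taPVAT (0.781, 0.634 to 0.958) and Ackr3 higher (1.29, 1.07 to 1.55), all within the fold.

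The 7-gene leukocyte list moved with these genes, and so did stromal markers. The stromal progenitor list was at 1318 CPM in taPVAT and 548 CPM in BAT. Among the lists that were lower in taPVAT, the blood endothelial list was at 910 and 1068 CPM. The dendritic (51.8 and 55.2 CPM) and mast cell lists (14.5 and 16.3 CPM) were slightly lower too. Higher in taPVAT were the T and NK (74.7 and 37.7 CPM), B and plasma (53.3 and 35.3) and neutrophil lists (12.4 and 6.01). So were the venous (143 and 106 CPM) and lymphatic endothelial lists (83.3 and 47.2). The 7-gene leukocyte list summed to 535 CPM in taPVAT and 202 CPM in BAT, with all 7 detected in both, and Ptprc to 151 and 49.9 CPM, and Ptprc nuclei were 5.69% and 2.11% of the nuclei. Of 35 other genes of the pathway, 12 were higher in taPVAT and 0 lower, against 5.97% and 1.1% of all genes. Among them were the leukocyte kinase Fgr (3.15, 2.47 to 4.06) and the phosphoinositide 3-kinase subunit Pik3r5 (3.93, 2.95 to 5.29). Vav1 (2.89) and Dock2 (2.23), which act on Rac in migrating leukocytes, were higher too. Dock2 is itself one of the 7 leukocyte markers, so it adds nothing independent of that list. Mmp9 (2.32, 0.924 to 6.33), also among the 12, is in the neutrophil list, and a further gene of the 12 is in the stromal progenitor list. The arrestin Arrb2 was also past the fold (2.41, 1.58 to 3.73), and Grk3, a receptor kinase, lay just inside it (1.98, 1.58 to 2.51), while Gnaq (0.998, 0.933 to 1.07) and Elmo1 (1.06, 0.975 to 1.15) were level. The part of these values in the receptor ratios was not tested.

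Between the white Parse libraries 15 members could be compared, with 1 higher and 1 lower in the library labelled mesPVAT, directions that would turn if the files were exchanged; over all 18507 genes 15.7% passed the fold, 5.88% higher and 9.79% lower. Cxcl9 was higher in mesPVAT (16.3 against 5.91 CPM, ratio 2.76, 1.05 to 9.16) and Cx3cr1 lower (9.05 against 18.9 CPM, 0.478, 0.220 to 1.03). Cxcl12 lay just inside the fold (1.96, 1.41 to 2.78), and it is the member with the narrowest interval. Ackr2 (1.00, 0.625 to 1.64) and Ackr1 (1.02, 0.456 to 2.44) were level within wide intervals. Of 34 other pathway genes 0 were higher and 2 lower, Mif (0.403, 0.190 to 0.837) and Mmp9 (0.351, 0.147 to 0.805). Several marker lists were higher in mesPVAT, as Cxcl12 was. The blood endothelial list was at 1013 CPM in mesPVAT and 765 CPM in RP fat. The pericyte and smooth muscle list was at 1024 and 784 CPM, and the adipocyte list at 2736 and 1152 CPM. The stromal list was level at 1814 and 1812 CPM. Among the lists that went the other way, the leukocyte list was at 601 and 666 CPM. The part of these values in the Cxcl12 ratio was not tested.

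The libraries labelled mesPVAT differed far more between kits, and whether the Parse one holds the same depot rests on its label. Of 12 members compared between the 10x and Parse libraries 7 were higher and 3 lower with 10x, against 55.6% of 12515 genes past the fold, 22.6% higher and 32.9% lower, so a large share past the fold was the rule for all genes. The ratios of the members differed widely in size, and where they lie among the ratios of all genes was not tested. Cxcl1 was 329-fold higher (90.5 to 2721; 491 against 2 UMIs), Ccl2 208-fold (36.7 to 8248; 155 against 1 UMI), Ackr3 103-fold (68.9 to 161), Ccl6 14.9-fold (6.91 to 38.3) and Ackr4 14.7-fold (6.42 to 41.6), followed by Ackr1 (2.21) and Ccl24 (2.10). Cxcl12 (0.227, 0.149 to 0.335), Ackr2 (0.219, 0.0952 to 0.447) and Cx3cl1 (0.134, 0.0152 to 0.551) were lower. Ccr3 (1.28, 0.669 to 2.44) and Cxcl9 (0.892, 0.463 to 1.68) were within the fold.

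**Figure D5:**
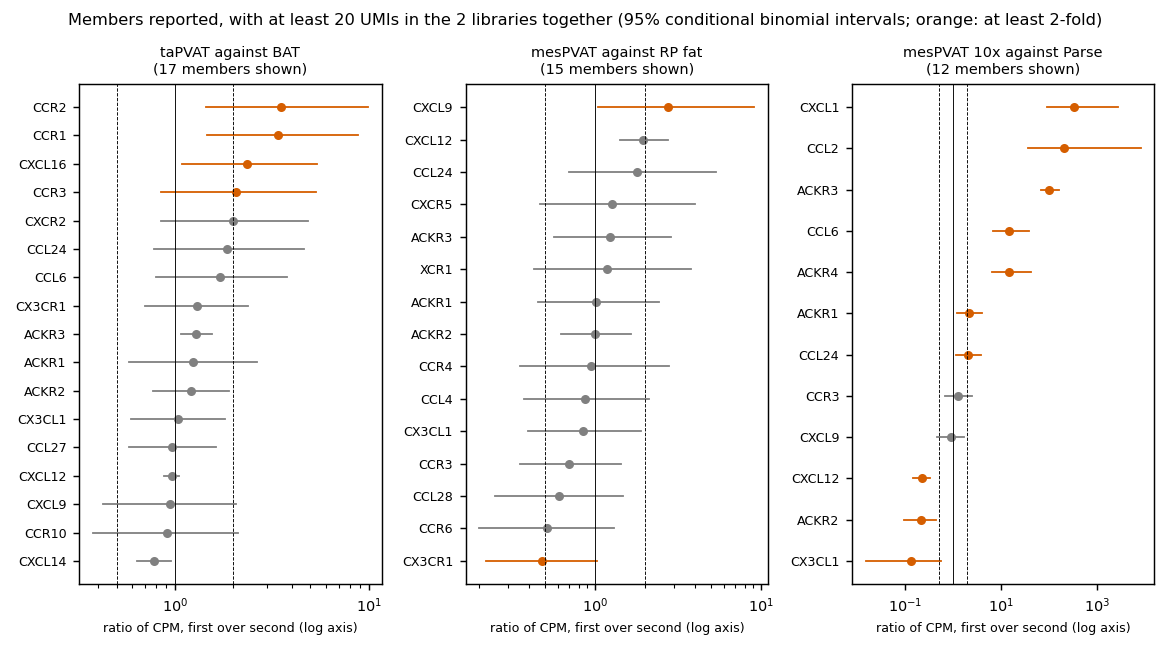
Ratio of CPM, first library over second on a log axis, of the members that are reported here and had at least 20 UMIs in the 2 libraries together, for taPVAT against BAT, mesPVAT against RP fat and mesPVAT 10x against Parse; bars are conditional binomial 95% intervals, dashed lines a ratio of 2 in either direction, orange points past it. All 4 orange points in the first panel lie to the right, and the last panel spans ratios from 0.134 to 329.

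Marker lists also differed between the kits. The mesothelial list was at 870 CPM with 10x and 83.9 CPM with Parse, the adipocyte list at 6101 and 2736, the stromal list at 2887 and 1814, the blood endothelial list at 511 and 1013, and the leukocyte list at 549 and 601. In the mesothelial list the difference lay in Msln (566 and 13.9 CPM) and Wt1 (280 and 47.7 CPM). Lrrn4 (10.5 and 7.85 CPM) and Upk3b (13.7 and 14.5 CPM) had overlapping intervals. Of 34 other pathway genes 9 were higher and 12 lower with 10x, near the 22.6% and 32.9% of all genes. The NF-kB inhibitor and early-response gene Nfkbia was higher (474 against 72.4 CPM, ratio 6.55, 5.37 to 8.04), as was Rgs2, an early-response regulator of G protein signalling (181 against 9.05 CPM, with an interval of the ratio from 11.9 to 36.3), while Nfkb1 (1.06, 0.837 to 1.35) and Rela (0.705, 0.388 to 1.24) were not. Gnaq had 0 UMIs with 10x and 353 with Parse. The 10x nuclei came from batch 1, from another isolation protocol and from another counting pipeline and gene annotation, so kit, isolation, annotation, batch and animal cannot be told apart in any of these ratios.

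In cow sWAT, 25 members reached 20 UMIs, the most of any library, at the greatest depth. CXCL12 (3474 UMIs), ACKR3 (621) and CCR8 (439) were followed by CXCL16 (193), CCL14 (165), CX3CL1 (150), CXCL3 (149) and CCL16 (86), and the last 4 of these had their highest class level in Ptprb nuclei. CCL14, a ligand absent from rodents, had 165 UMIs (9.81 CPM, 8.37 to 11.4), with 37.0 CPM (29.1 to 46.4) in Ptprb nuclei and 1.67 to 3.75 CPM in the other classes. CXCL3, a neutrophil attractant, was at 29.1 CPM (22.1 to 37.5) in Ptprb nuclei, and had no UMI in the 134 Plin1 nuclei. A count of 0 there does not show that the gene was absent. CX3CL1 was at 16.8 (11.6 to 23.4) in Ptprb and 10.3 (5.14 to 18.4) in Pdgfra nuclei, with overlapping intervals, again with no UMI in Plin1 nuclei. CCL16 had 86 UMIs and was split between Ptprb (12.8 CPM, 8.38 to 18.8) and Ptprc nuclei (9.21 CPM, 4.60 to 16.5), with none in Pdgfra or Plin1 nuclei. CXCL16 was highest in Ptprc nuclei, at 35.2 CPM (25.3 to 47.5) against 8.43 to 9.34 CPM in the other classes. CCL26, an eosinophil attractant, had 30 UMIs in the library and no UMI in the 10x rat library, and it was not analysed here in the rat Parse libraries.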

How the data were processed

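Single-nucleus count matrices were used as deposited: the authors' files hold UMI counts per gene and nucleus, not normalized, from Cell Ranger 7.1.0 (10x) and from the Parse pipeline (GRCr8 for rat), with FastQC and Scanpy also named in the submitters' processing notes. The methods name Rnor_6.0 for the 10x data, which the file could not settle, so genes were matched to the Parse files by identifier or symbol and 20879 matched. All deposited barcodes were kept, background RNA was not removed and no doublet caller was run. Nuclei holding several class genes therefore form a class of their own. UMI counts were summed over nuclei per library with Python 3.11.15, NumPy 2.4.6, pandas 2.3.3 and SciPy 1.17.1. Levels carry exact Poisson intervals, shares exact Clopper-Pearson binomial intervals and ratios conditional binomial intervals, all at 95% and for counting error only. Members with at least 20 UMIs in a library were named. Ratios of at least 2 were counted among genes with at least 20 UMIs in both libraries together. The ratio interval was run on simulated Poisson counts, the model it assumes, so that check cannot show how well it holds in these libraries. For the marker lists, a nucleus was led by the list with the most UMIs, at least 2, and otherwise left unnamed; members were taken out of the lists first. Gene spans and promoters are from RefSeq (GRCr8), and all 56 rat members had a span. Values of 1 member and 1 other pathway gene are not reported here, but both stay in the counts. The members and lists were chosen with earlier results of these data known. Alternatives were other nucleus filters, totals, minimum counts, sublibraries, classings and thinning.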

Additional observations from a re-analysis of the deposited data

How the results depend on the processing

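No paired analysis was possible because each group was 1 library and the labels carry no replicate numbers. The summed level of all members moved by more than its counting interval when each nucleus was weighted equally (2412 CPM in the 10x library, 443 in taPVAT, 386 in BAT, 378 in the cow), when mitochondrial genes and the top gene were left out of the total (397 in taPVAT, 369 in BAT, 407 in the cow), within the study's limits on nuclei (395 in the cow) and in sublibrary 1 (309 in BAT). Members detected fell to 18 in the 10x library with nuclei of at least 500 UMIs, and to 27 in BAT and 28 in the cow when thinned to the 845316 UMIs of RP fat, against 46 in RP fat itself.

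The 5 members past the fold between taPVAT and BAT became 0 of 6 with a minimum of 50 UMIs (4.04% of all genes). There were 0 of 7 and 0 of 8 in sublibraries 1 and 2 (7.77% and 6.86%), where fewer members could be compared. With no minimum there were 17 of 52 (19.3% of all genes). Between mesPVAT and RP fat the 2 became 1 of 3 with nuclei of at least 500 UMIs (20.3% of all genes). With a minimum of 50 UMIs there were 0 of 2 (11.7%), and with no minimum 13 of 53 (24.4%). The sublibraries gave 0 of 4 and 1 of 2 (16.1% and 20.5%). Between 10x and Parse the 10 became 6 of 7 with nuclei of at least 500 UMIs (55.2% of all genes). With no minimum there were 40 of 50 (59.5%). For 17 pairs of gene and library with at least 100 UMIs the highest class was compared: Cxcl12 in taPVAT, BAT and the cow, Ackr3 in BAT and the 10x library, Ccl2 in the 10x library, Cxcl14 in BAT, and CCL14, CXCL3, CX3CL1 and CXCL16 in the cow kept theirs under all alternatives, while it changed for Cxcl1 in the 10x library (Ptprb to Ptprc by marker lists, Plin1 with at least 500 UMIs, Pdgfra when thinned to 200), Cxcl12 in mesPVAT (to Pdgfra when thinned), Cxcl14 in taPVAT (Plin1 to Pdgfra by marker lists and when thinned), Ackr3 in taPVAT (Plin1 to Pdgfra by marker lists), ACKR3 in the cow (PDGFRA to PLIN1 by marker lists and when thinned) and CCR8 in the cow (PTPRC to PLIN1 by marker lists). The highest class was taken by level, whatever the intervals. When thinned to 200 UMIs, it rested on 2 positive nuclei each for Cxcl14 in BAT and for CCL14, CXCL3 and CX3CL1 in the cow. For CXCL16 in the cow and Ccl2 in the 10x library it rested on 3 each. The changes when thinned rested on few nuclei too. They were 1 of 25 Pdgfra nuclei for Cxcl1 in the 10x library and 1 of 80 for Cxcl14 in taPVAT. For Cxcl12 in mesPVAT they were 3 of 50 Pdgfra nuclei, and for ACKR3 in the cow 3 of 134 Plin1 nuclei. The thinned shares of cow nuclei with a CXCL12 UMI were 5.04% in Ptprb, 5.22% in Plin1 and 4.43% in Pdgfra nuclei. Counts of 1 to 19 UMIs limit most receptors.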

Other observations

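Further members of the cow library had class levels that the comparisons did not use. ACKR2, the scavenger of inflammatory CC ligands, was at 12.2 CPM (6.48 to 20.8) in Pdgfra nuclei and 1.48 (0.305 to 4.32) in Ptprb nuclei. CXCL14 had 30 UMIs, and 5 of them in Pdgfra nuclei gave 4.68 CPM (1.52 to 10.9), against 0.493 to 1.17 CPM in the other classes. The eotaxin receptor CCR3 had 45 UMIs (2.67 CPM), the fractalkine receptor CX3CR1 38 (2.26 CPM) and the CCL2 receptor CCR2 25 (1.49 CPM). CCR3 levels in the single classes, 0.936 to 4.19 CPM, had overlapping intervals.

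In the rat, the 56 members lie on 13 chromosomes, with 13 on chromosome 10, 13 on chromosome 8 and 8 on chromosome 14.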
